A study of Drosophila melanogaster with 4 samples.

Results

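The calls described here are 722 of the 30000 in a pooled list that holds background as well as peaks. They come from a chromatin immunoprecipitation sequencing (ChIP-seq) series on the Drosophila melanogaster protein CG1233. The 722 lay at promoters of noncoding RNA (ncRNA) genes and of no protein-coding gene. A call was kept when its summit lay within 500 bp of a transcription start site (TSS) of a gene with the ncRNA biotype and more than 500 bp from every protein-coding TSS. Of the 722 calls, 128 also stood in the optimal list, the submitters' list from their reproducibility step between replicates. That list held the strongest calls of the pooled list without a gap, and so amounts to a cut by pooled rank. Standing in it therefore does not show that a given call recurred in the replicates. The peak caller's −log10 q had a median of 3.77 in the 128 optimal calls and 0.423 in the 594 others. Calls outside the optimal list may therefore be background, and counts of genes with a call of any strength are not counts of bound genes. All 4 biological replicates belonged to 1 group: whole embryos of both sexes, 0 to 24 h of age, from a transgenic fly line stably carrying CG1233 fused to green fluorescent protein at its C terminus, with chromatin sonicated to 200 to 800 bp. No other genotype, treatment or time was included, so no conditions could be compared. The sample labels conflict: the description names each library an input control, whereas the antibody field gives CG1233, and the lists were read as ChIP calls. Whole embryos mix many cell types, so a weak call in every cell and a strong call in few cells cannot be told apart. Read counts are absent from the deposited lists, which leaves sequencing depth unknown.

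Noncoding RNA genes of the fly include long RNAs transcribed by RNA polymerase II, many of them capped and spliced like messenger RNAs. Some long RNAs serve as primary transcripts from which microRNA (miRNA) hairpins are cut, and others carry small nucleolar RNAs (snoRNAs) in their introns. At such a gene the regulatory promoter is that of the host transcript, whereas the annotated start of a hairpin or of a mature miRNA is a processed end. The biotype used here holds both kinds. Its 3261 genes comprised 1951 long RNAs (lncRNA), 503 antisense RNAs (asRNA), 260 miRNA hairpins, 481 mature miRNA entries that all lay inside a hairpin, and 66 other small RNAs. The name "promoter" therefore fits the 677 calls near the start of a long or antisense RNA, 119 of them optimal, better than the 40 calls near miRNA entries alone, 7 of them optimal, and the 5 near other small RNAs, 2 of them optimal. Signal is the peak caller's own score, and ranks by signal (1 is the strongest) were compared only within a list.

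Of the 20 strongest calls that were optimal and held by all 4 replicates, 18 lay at long or antisense RNAs, as did 677 of all 722. The summit with 50 bp on either side, read from the RefSeq Release 6 (dm6) genome on the strand of the RNA, are shown for 6 of the 8 strongest calls that were optimal and held by all 4 replicates, because they are among the highest in signal and differ widely in base composition. The other 2 of the 8 strongest such calls, at lncRNA:CR44339 and Uhg4, lay on that arm and are described without sequence. Capitals mark any of the 8 promoter words searched, listed with the word counts further on.
lncRNA:CR43334, chr3L:628140-628240, plus strand: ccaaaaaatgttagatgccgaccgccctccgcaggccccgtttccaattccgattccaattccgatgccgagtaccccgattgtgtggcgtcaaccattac
lncRNA:CR31840, chr2L:14024036-14024136, minus strand: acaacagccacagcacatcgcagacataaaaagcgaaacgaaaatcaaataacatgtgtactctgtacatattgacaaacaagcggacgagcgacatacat
lncRNA:CR31044, chr3R:29214398-29214498, plus strand: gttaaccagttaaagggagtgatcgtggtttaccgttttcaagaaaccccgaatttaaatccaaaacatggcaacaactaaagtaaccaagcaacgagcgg
lncRNA:CR46036, chr3R:17700516-17700616, plus strand: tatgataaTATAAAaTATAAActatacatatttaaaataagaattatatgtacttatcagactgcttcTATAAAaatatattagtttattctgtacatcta
asRNA:CR44429, chrX:15298410-15298510, minus strand: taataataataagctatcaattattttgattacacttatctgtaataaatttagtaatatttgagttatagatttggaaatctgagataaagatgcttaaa
lncRNA:CR44409, chr2L:17430148-17430248, plus strand: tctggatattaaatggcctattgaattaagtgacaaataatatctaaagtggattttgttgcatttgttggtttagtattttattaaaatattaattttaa
Guanine and cytosine made up 54.5% of the CR43334 window, 40.6% of the CR31840 window and 41.6% of the CR31044 window. The CR46036 window was 16.8% GC and held the TATA word at 3 places, the CR44429 window was 19.8% GC and the CR44409 window 21.8% GC. None of the other 5 windows held any of the 8 words.

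The strongest of all 722 calls was at lncRNA:CR43334, the transcript that spans the bantam hairpin (mir-ban), a miRNA known for promoting tissue growth and blocking cell death. Its pooled signal was 4412, the twelfth highest of the 30000 (rank 12), and its ranks in replicates 1 to 4 were 6, 22, 11 and 14. The summit lay 245 bp upstream of the TSS at 628435 on 3L. All 4 replicates thus placed this call among their 22 strongest.

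The call at lncRNA:CR31840, a gene of unassigned function, followed at pooled rank 15 with a signal of 3942.8. Its replicate ranks were 12, 13, 9 and 34, and its summit lay 13 bp downstream of the TSS, the closest to a start among the first 6. A second lncRNA on the same strand, lncRNA:CR45352, had its own call less than 2000 bp away at rank 293, with replicate ranks of 464, 282, 435 and 258. Both calls lay between protein-coding genes.

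The third strongest call also lay at a miRNA host. lncRNA:CR31044 spans mir-279 and mir-996, which are known for restricting the formation of certain sensory neurons. The call ranked 43 in the pooled list and 46, 56, 33 and 47 in replicates 1 to 4, with the summit 114 bp upstream of the TSS and 5724 bp from the nearest protein-coding TSS, that of eEF1gamma. lncRNA:CR44339, 4197 bp from the TSS of the Polycomb-group gene Psc, came next, at rank 57 in the pooled list and at 54, 55, 56 and 62 in the replicates. Its 4 replicate ranks were the closest to each other among these 4 calls.

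Uhg4, a host gene whose introns carry 7 annotated snoRNAs, had a call of rank 143, with replicate ranks of 135, 153, 107 and 173 and the summit 52 bp upstream of the TSS. Its nearest protein-coding start, that of Boot, was 563 bp away, just beyond the limit of the rule. lncRNA:CR46036 lay in an intron of osa, on the opposite strand from that gene, which encodes a subunit of the Brahma chromatin remodelling complex. Its call ranked 135, and 132, 139, 211 and 118 in the replicates.

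The asRNA:CR44429 call lay in an intron of gce, which encodes a juvenile hormone receptor, on the strand opposite to it. It ranked 169 in the pooled list and 188, 171, 311 and 130 in the replicates. The lncRNA:CR44409 call, in an intron of the NF-kappaB family gene Dif and again on the opposite strand, ranked 192 in the pooled list and 256, 191, 491 and 172 in the replicates. For both calls replicate 3 gave the weakest rank and replicate 4 the strongest.

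**Figure D1:**
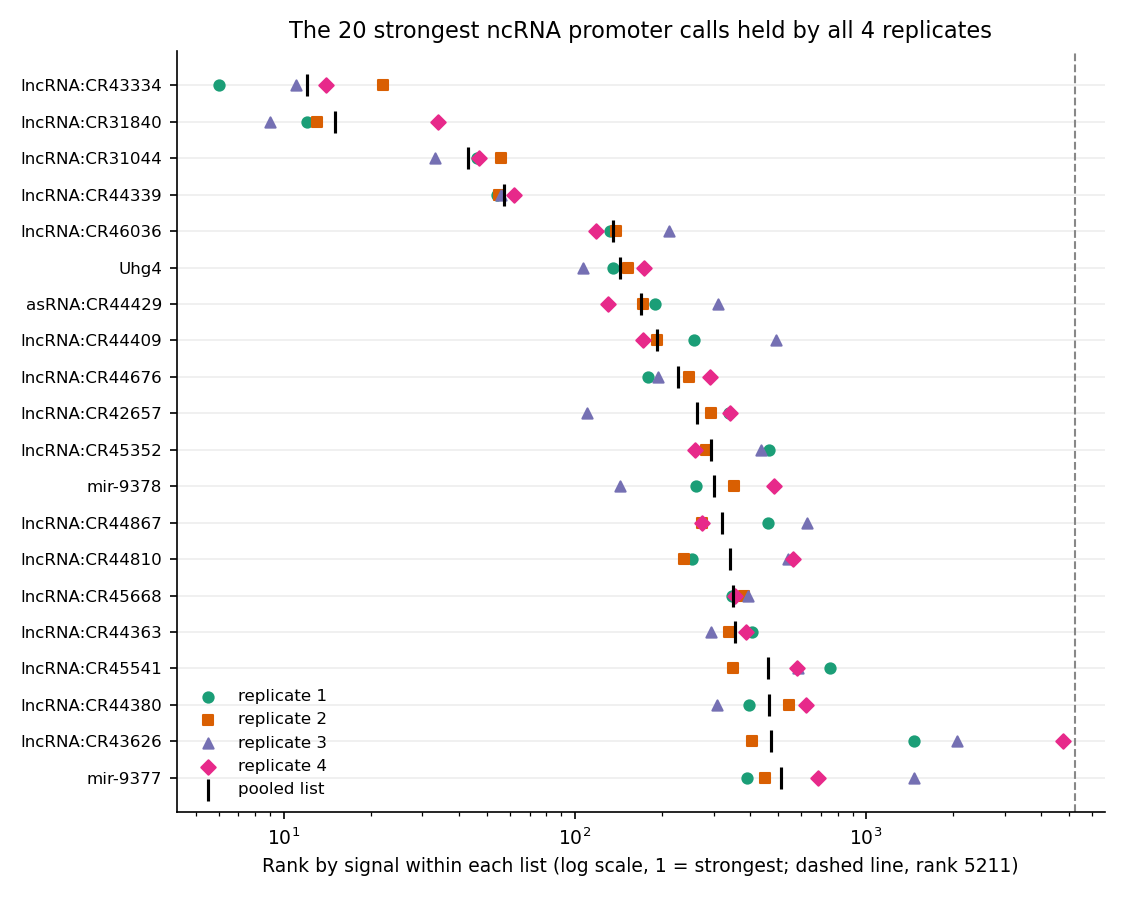
Rank by signal (horizontal, log scale) of the 20 strongest ncRNA promoter calls that were optimal and held by all 4 replicates, strongest at the top. Coloured points are the 4 replicates and black bars the pooled list. Every point lies left of the dashed line, the length of the optimal list, because the calls were chosen that way. The call at lncRNA:CR43626 is the most spread, between ranks 408 and 4739.

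The other 12 of the 20 strongest calls held by all 4 replicates ranked between 226 and 513 in the pooled list. In rank order they lay at lncRNA:CR44676, lncRNA:CR42657, lncRNA:CR45352, mir-9378, lncRNA:CR44867, lncRNA:CR44810, lncRNA:CR45668, lncRNA:CR44363, lncRNA:CR45541, lncRNA:CR44380, lncRNA:CR43626 and mir-9377. Protein-coding neighbours of this group include nej, the fly CBP acetyltransferase, whose TSS was 683 bp from the lncRNA:CR42657 summit, and the actin gene Act5C, 682 bp from the lncRNA:CR45668 summit. In all, 4 of the 20 summits had a protein-coding TSS within 1000 bp. Of the 20, 14 lay outside protein-coding genes, 4 in introns of a gene on the opposite strand and 2 in introns of a gene on the same strand. The last 2 were the miRNA entries: mir-9378, in an intron of CG17124, and mir-9377, in an intron of Tis11, an RNA-binding protein that speeds messenger RNA decay. In 14 of the 20 the summit was upstream of the nearest ncRNA TSS, and in 6 it was downstream.

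Grouped by what the RNAs are, hosts of miRNAs had the highest share of genes with an optimal call among the lists of more than 1 gene. A gene was counted as eligible when a position within 500 bp of one of its starts could pass the rule. Of 37 eligible miRNA host genes, 23 had a call and 9 had an optimal one, or 24.3% (exact 95% interval 11.8 to 41.2). Over all eligible ncRNA genes the share was 4.29%, or 136 of 3172, with 716 genes having a call of any strength. Long RNAs known only by a CR number stood at 4.67%, or 109 of 2333, and antisense RNAs at 2.35%, or 11 of 468. Host genes also had more annotated starts, with 1.65 TSSs per gene on average against 1.05 over all ncRNA genes, so each offered more places for a call. Among genes with a single TSS, 3 of 23 hosts had an optimal call (13.0%, interval 2.78 to 33.6), beside 122 of 3045 ncRNA genes (4.01%, interval 3.34 to 4.77). Among genes with several TSSs the counts were 6 of 14 hosts (42.9%, interval 17.7 to 71.1) and 14 of 127 ncRNA genes (11.0%, interval 6.16 to 17.8). The single-start intervals overlap, and the part that the number of starts plays in the difference was not tested.

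**Figure D2:**
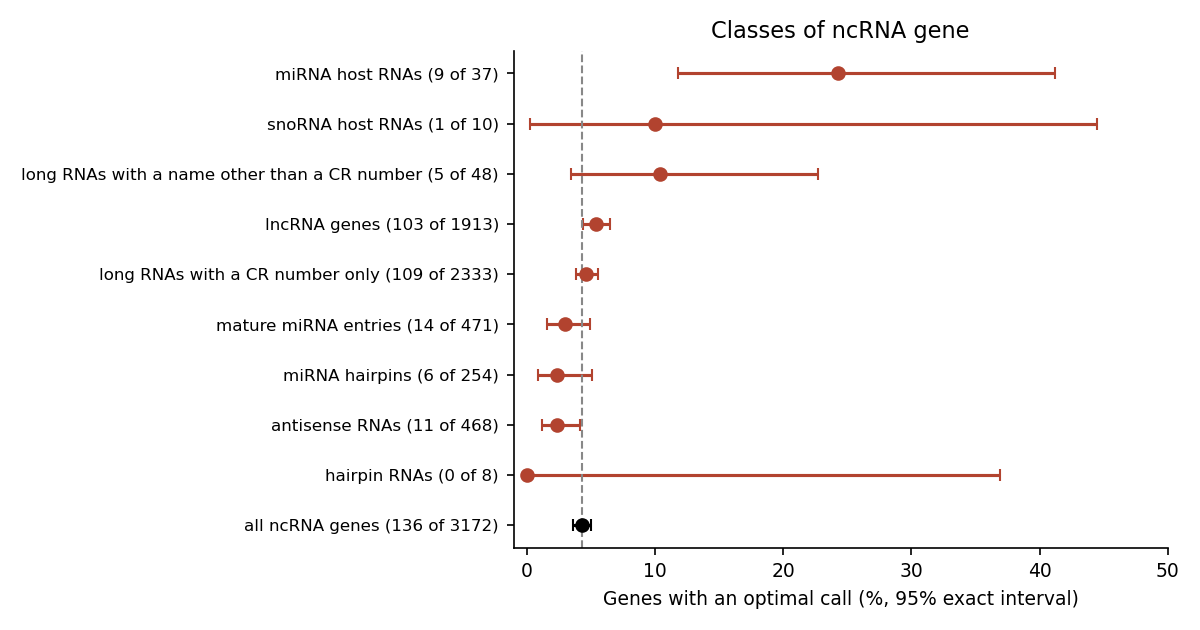
Share of eligible ncRNA genes with an optimal call at an ncRNA promoter only (horizontal, percent), by class, with the number of genes beside each name. Points are shares, bars 95% exact intervals and the dashed line all ncRNA genes (4.29%); of the classes drawn miRNA hosts stand highest, at 24.3%. Classes share genes, and the list of a single stress RNA, which had an optimal call, is not drawn.

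Beside the bantam and mir-279 hosts, 7 miRNA hosts had an optimal call. Among them, lncRNA:CR43626, host of mir-282, had 2. The stronger ranked 474 in the pooled list, yet 1464, 408, 2052 and 4739 in replicates 1 to 4, and the weaker ranked 3758. lncRNA:Hsromega, a heat-inducible nuclear RNA that organizes omega speckles and spans mir-4951, had a call of rank 714, 186 bp downstream of a start, with replicate ranks of 801, 970, 754 and 566. asRNA:CR46194 spans mir-281-1 and mir-281-2 within the ornithine decarboxylase antizyme gene Oda. Its call ranked 2476, with replicate ranks of 2431, 2105, 4437 and 2237. The calls of Hsromega and CR46194 were held by all 4 replicates. For the strongest call of each of the 3 hosts among the 20 strongest, that was a condition of the choice.

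The remaining 4 hosts had weaker calls, and at 3 of them the replicates ranked the call unevenly. lncRNA:CR43650, host of mir-8, the fly member of the miR-200 family, had a call of rank 4472, with replicate ranks of 2174, 17427, 1336 and 4131. lncRNA:CR43651, host of mir-14, a miRNA known for its part in fat storage and cell survival, had a call of rank 5186, with replicate ranks of 1218, 22029, 2128 and 19819. lncRNA:CR46006, host of mir-276a, had an optimal call of rank 4928 with replicate ranks of 6179, 16382, 1129 and 13198. Each of these 3 calls ranked higher in replicates 1 and 3 than in replicates 2 and 4. lncRNA:CR45916, host of mir-9a, which sharpens the choice of sensory organ precursors, had a call of rank 4036 with replicate ranks of 3507, 5236, 5366 and 5295. Only replicate 1 held that call among its strongest.

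Within 500 bp of their own starts, the other 14 miRNA hosts with a call had only calls outside the optimal list. The strongest of these calls lay at lncRNA:CR45913 (mir-968 and mir-1002, rank 5675), lncRNA:CR43857 (mir-275, rank 5945), lncRNA:CR43459 (mir-277 and mir-34, rank 6139) and lncRNA:CR43836 (mir-31b, rank 6747). Inside lncRNA:CR43857 and lncRNA:CR43459, optimal calls did lie near the mir-275 and mir-34 hairpins, at ranks 4208 and 4515. The host of the muscle miRNA mir-1, lncRNA:CR45361, had a call of rank 7501, and lncRNA:CR44504, which spans the mir-309 cluster that clears maternal messenger RNAs, one of rank 25100.

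Among other RNAs with known functions, 4 lists of 2, 3, 4 and 8 genes held no optimal call, beside 4.29% of all eligible ncRNA genes with an optimal call and 22.6% with any call. Lists so short cannot show a share below that background. The dosage compensation RNAs roX2 and roX1, which coat the male X chromosome with the MSL complex, had weak calls only, of rank 11110 at roX2 and 20468 at roX1. Replicate 1 alone held the roX2 call, at rank 3797, and no replicate held the roX1 call. Of the 3 bithorax complex RNAs, lncRNA:iab8 had 2 weak calls, of ranks 13268 and 28616, and lncRNA:bxd and lncRNA:iab4 had none. The 4 RNA polymerase III and processing RNAs, 7SL, RNase P and RNase MRP among them, had no call, nor had the 8 hairpin RNAs, the precursors of endogenous small interfering RNAs. The exact 95% interval of their optimal share reaches 60.2% for the first of these lists and 36.9% for the hairpin RNAs.

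Of 48 eligible long RNAs with a name other than a CR number, 5 (10.4%, interval 3.47 to 22.7) had an optimal call, beside 4.29% of all eligible ncRNA genes: Uhg4, Hsromega, flam, marge and TS2. lncRNA:flam is the transcript of flamenco, a piRNA cluster that silences gypsy-family retroelements in ovarian follicle cells. Its call ranked 1716, with replicate ranks of 1773, 2309, 1689 and 1446, and lay 157 bp upstream of the start. The calls at TS2 (rank 3504) and marge (rank 3643) were held by 3 and 2 replicates. Among 10 snoRNA hosts, Uhg4 was the only gene with an optimal call under the rule. When summits shared with a protein-coding TSS were counted, 4 of the 10 had one, beside 236 of all 3261 ncRNA genes.

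As a set, the ncRNA promoter calls were in the optimal list about as often as pooled calls in general. The optimal list held 17.7% of them (128 of 722, exact 95% interval 15.0 to 20.7), beside a background of 17.4% of all 30000 pooled calls, a share that lies inside the interval. It held 28.7% of the 7578 calls at protein-coding promoters only (interval 27.7 to 29.7) and 13.1% of the 21374 calls with neither kind of TSS within 500 bp (interval 12.7 to 13.6). Their median rank was 14485, against 9968 for the protein-coding promoter calls. Intervals cover counting error only, and neighbouring calls are not independent. Of the 100 strongest pooled calls 4% were ncRNA promoter calls (interval 1.10 to 9.93), of the next 400 3.75% (interval 2.11 to 6.11), of the next 500 3.80% (interval 2.30 to 5.87), of the next 1000 2.30% (interval 1.46 to 3.43) and of the other 3211 optimal calls 2.09% (interval 1.62 to 2.64). They made up 2.40% of the 24789 calls below the optimal list (interval 2.21 to 2.59). Over the same bands the protein-coding promoter calls made up 58%, 56%, 48.6%, 40.9%, 38.6% and 21.8%. The ncRNA share was between 3.75% and 4% in the bands down to rank 1000 and between 2.09% and 2.40% in those after it, whereas the protein-coding share was lower in each later band.

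A replicate was said to hold a pooled call when a summit among its own strongest calls, as many as the optimal list has, lay inside that call. The pooled list was called from the same 4 libraries, so agreement with the replicates is built in. All 4 replicates held 74 of the 722 ncRNA promoter calls, or 10.2% (interval 8.13 to 12.7), beside a background of 8.8% of all pooled calls, and none held 494, or 68.4%. Replicates 1 to 4 held 19.4%, 19.0%, 18.7% and 19.8% of the ncRNA promoter calls, a mean of 19.2% ± 0.485 (SD, n = 4). They held 31.2%, 30.2%, 31.3% and 31.0% of the protein-coding promoter calls, a mean of 30.9% ± 0.523 (SD, n = 4). All 4 ncRNA shares lay below all 4 protein-coding shares. The ncRNA share was lower in 4 of 4 replicates, by 11.7 percentage points on average (SD 0.668). A two-sided exact sign-flip permutation test gave p = 0.12, the smallest that 4 replicates allow. The difference was smaller, at -7.70 points, beside protein-coding promoter calls with no opposite protein-coding TSS within 1000 bp. It was -5.16 points with each replicate's list of strongest calls shortened by 50%, and -5.58 points (exact permutation p = 0.375) with all its calls. Against calls with neither TSS nearby, the ncRNA share was higher in 4 of 4 replicates by 5.39 points (SD 0.967, exact permutation p = 0.12).

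**Figure D3:**
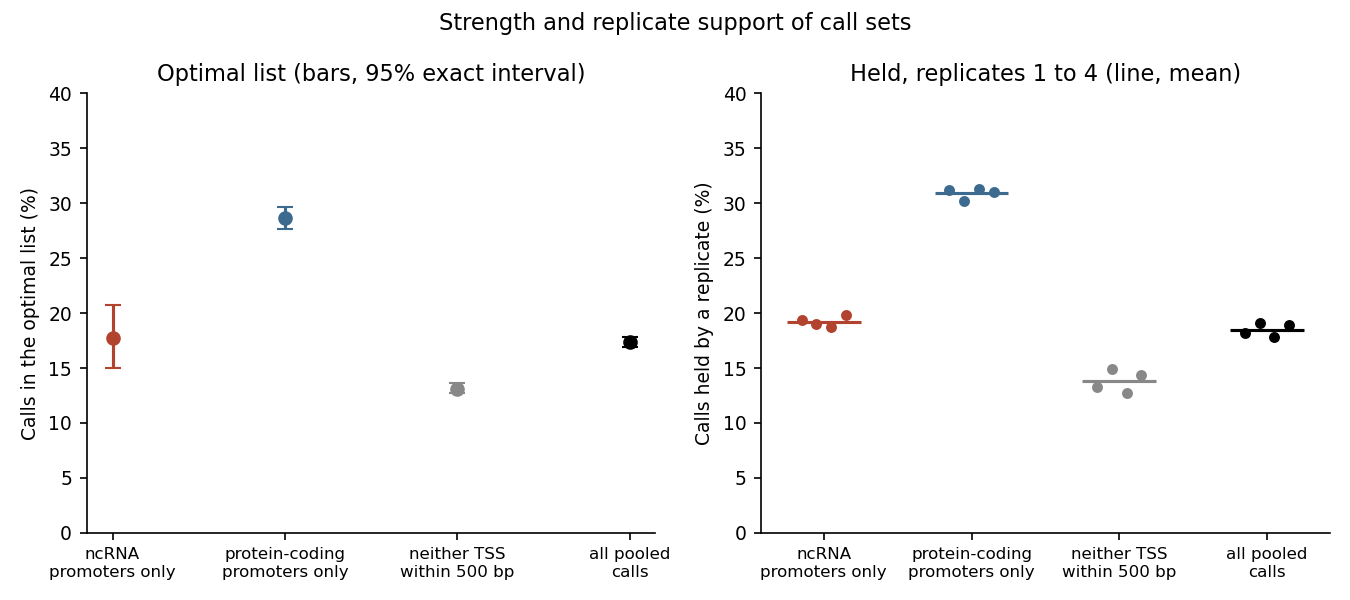
Share of calls in the optimal list (left, points with 95% exact intervals) and share held by each of the 4 replicates (right, points, with the mean as a line), in percent, for 4 sets of pooled calls. The ncRNA promoter calls, at 17.7% and a mean of 19.2%, lie below the protein-coding promoter calls, at 28.7% and 30.9%, and beside all pooled calls.

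Among optimal calls, the ncRNA and protein-coding promoter calls were held in overlapping shares. All 4 replicates held 70 of the 128 optimal ones, or 54.7% (interval 45.7 to 63.5), beside 48.1% of the 2173 optimal protein-coding promoter calls, a value inside that interval. Replicates 1 to 4 held 75.8%, 85.9%, 77.3% and 82.8% of the 128 (80.5% ± 4.73, SD, n = 4), and of the protein-coding ones 75.1%, 85.3%, 70.7% and 83.1% (78.5% ± 6.82, SD, n = 4). A single optimal ncRNA promoter call, at lncRNA:CR45805 (rank 4912), was held by none. Replicates 2 and 4 without the others held 8 of the 128 (6.25%), beside 11.9% of the protein-coding ones.

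The lists called on each replicate alone gave the same order. Replicates 1 to 4 had 707, 716, 719 and 742 ncRNA promoter calls in their full lists. Of as many of their strongest calls as the optimal list holds, 139, 119, 134 and 136 were ncRNA promoter calls, a share of 2.53% ± 0.173 (SD, n = 4). On average 18.3% ± 1.28 of a replicate's ncRNA promoter calls were among those strongest calls, against 29.4% ± 3.05 of its protein-coding promoter calls (SD, n = 4 each). The difference was -11.1 points, negative in 4 of 4 replicates (two-sided exact sign-flip permutation p = 0.12).

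Calls were not concentrated at the ncRNA start itself. Counted over bases more than 500 bp from every protein-coding TSS, summit density was 332.2 per Mb within 100 bp of the nearest ncRNA TSS, 322.3 at 100 to 200 bp, 301.6 at 200 to 300 bp, 332.4 at 300 to 400 bp and 328.8 at 400 to 500 bp. It was 323.6 per Mb over the whole window of 500 bp, 296.7 at 500 to 1000 bp and 264.2 at 1000 to 2000 bp. The average of the 6 chromosome arms was 224.1 per Mb. That average counts all bases, also those within 500 bp of a protein-coding TSS, where the density was 515.5 per Mb (148.4 for optimal summits). It is therefore not a background on the same bases. Around protein-coding starts the density was 875.7 per Mb within 100 bp and 263.2 at 400 to 500 bp. Restricting the starts to long and antisense RNAs gave 349.9 per Mb within 100 bp, close to the value for all ncRNA starts. The density of optimal summits was more uneven, at 49.5, 62.2, 70.8, 48.5 and 56.4 per Mb in the same bins of 100 bp from an ncRNA TSS. It was 57.4 per Mb within 500 bp, 51.1 at 500 to 1000 bp and 35.1 at 1000 to 2000 bp. The average over the arms was 38.9, and the density within 100 bp of a protein-coding TSS was 253.7. Around ncRNA starts the density was thus above the arm average at each distance up to 500 bp, though the bases counted differ. Within 500 bp it lacked the fall with distance seen at protein-coding starts.

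**Figure D4:**
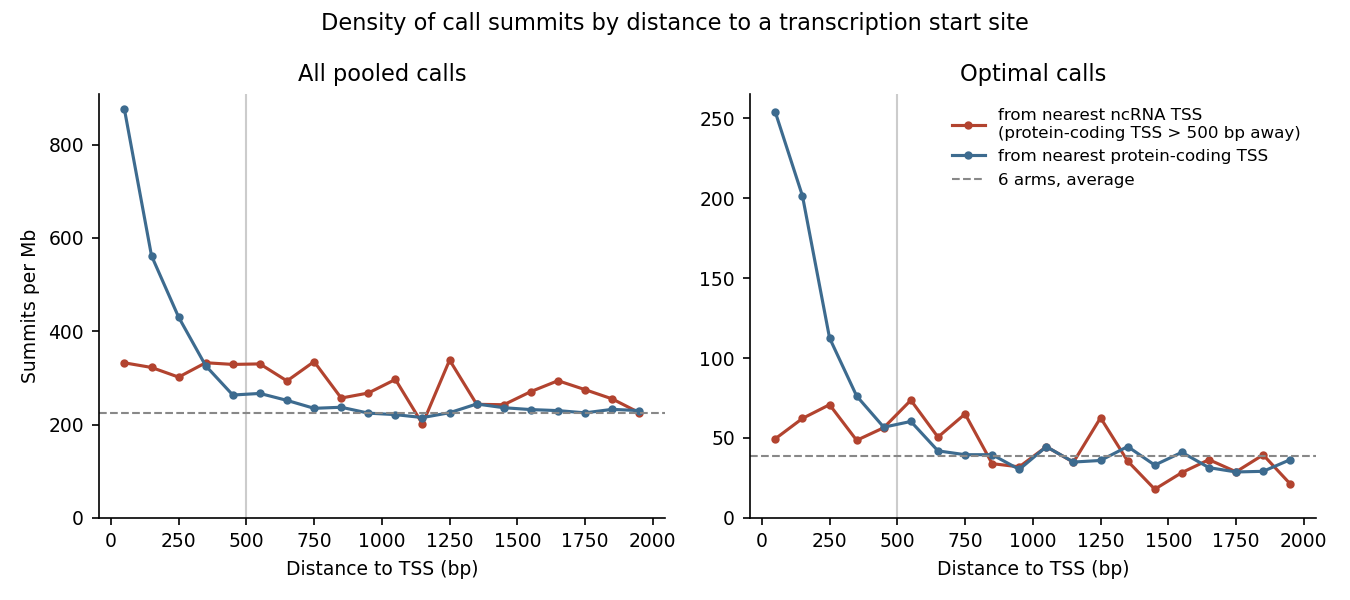
Summits per Mb of sequence (vertical) in bins of 100 bp by distance from the nearest TSS (horizontal, bp), for all pooled calls (left) and optimal calls (right). The ncRNA line stays between 301.6 and 332.4 per Mb up to the 500 bp limit (grey vertical line). The protein-coding line falls from 875.7 to 263.2 per Mb. The dashed line is the average of the 6 arms over all bases. The ncRNA line leaves out bases within 500 bp of a protein-coding TSS.

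The side of the start did differ with strength. Of the 722 summits, 367 (50.8%, interval 47.1 to 54.5) lay upstream of the nearest ncRNA TSS. Of the 128 optimal ones 80 did (62.5%, interval 53.5 to 70.9), with a median position of -98.5 bp, and of the 594 others 287 did (48.3%, interval 44.2 to 52.4). Among protein-coding promoter calls 63.6% of all and 79.0% of the optimal ones were upstream. The bin with the fewest optimal ncRNA summits was the first 100 bp downstream, with 6 of 128 (4.69%), whereas 12.4% of the optimal protein-coding summits lay there. Beyond 100 bp downstream the order turned, with 10.2% of the ncRNA and 2.12% of the protein-coding summits at 400 to 500 bp. In the replicates' own lists, the upstream share of the strongest ncRNA promoter calls was 56.1%, 62.2%, 57.5% and 63.2% in replicates 1 to 4, and that of the protein-coding ones 67.3%, 82.4%, 64.7% and 84.2%. The ncRNA share was lower in 4 of 4 replicates, by 14.9 points on average (SD 6.79, two-sided exact sign-flip permutation p = 0.12).

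**Figure D5:**
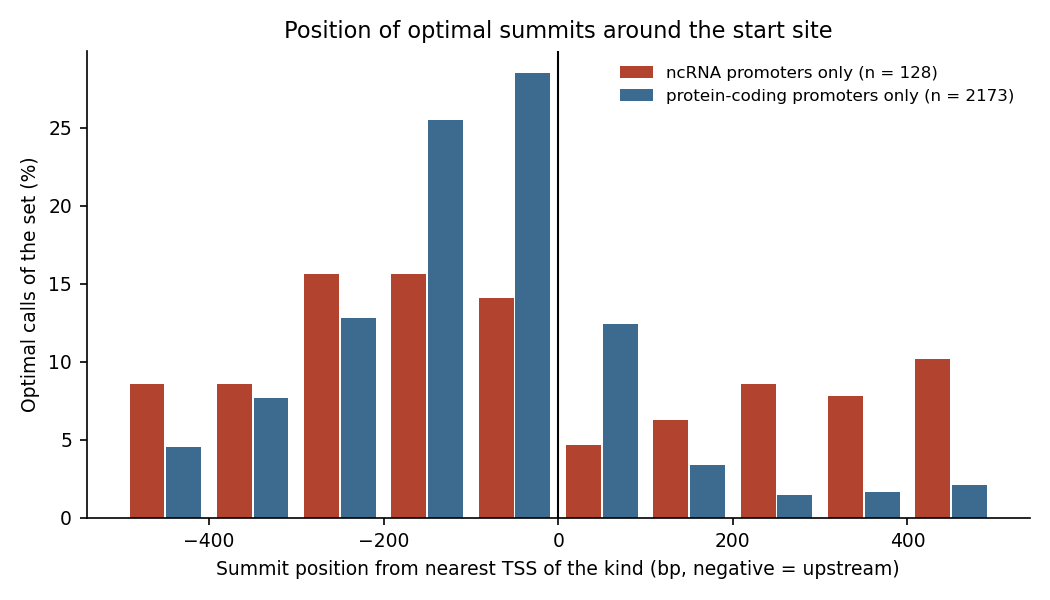
Position of optimal summits relative to the nearest TSS (horizontal, bp, negative is upstream), as a percent of each set (vertical), for 128 ncRNA and 2173 protein-coding promoter calls. The ncRNA summits are spread over the window, with 15.6% in the fullest bins, while 28.5% of the protein-coding summits fall in the 100 bp before the start.

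Most of the ncRNA promoter calls lay outside protein-coding genes. The rule itself leaves out summits within 500 bp of a protein-coding start. The share outside genes was not computed for other calls, so it has no background here. Of the 722, 484 (67.0%) were outside every protein-coding gene, 137 in introns of a gene on the opposite strand to the ncRNA, 59 in introns of a gene on its own strand, 27 in exons of the opposite strand and 13 in exons of the same strand. The optimal share was alike in the first 3 classes, at 17.8%, 19.0% and 18.6%. Distance to the nearest protein-coding TSS made little difference beyond the limit. The optimal share was 16.8% of 107 calls at 500 to 1000 bp (interval 10.3 to 25.3), 18.8% of 372 at 1000 to 5000 bp (interval 15.0 to 23.2) and 16.5% of 243 farther away (interval 12.0 to 21.7).

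Base composition differed between strong and weak ncRNA promoter calls, as it did over the whole pooled list. In the summit with 50 bp on either side the median GC content was 32.7% in the 128 optimal calls and 40.6% in all 722. Over the whole pooled list it was 33.7% in the optimal calls and 40.6% in all calls. Of 120 calls under 30% GC, 55 were optimal (45.8%, interval 36.7 to 55.2), of 213 between 30 and 40% GC 44 were (20.7%, interval 15.4 to 26.7), and of 389 above 40% GC 29 were (7.46%, interval 5.05 to 10.5). Protein-coding promoter calls followed the same order, with 54.3% optimal under 30% GC, 30.4% between and 18.4% above 40% GC. Among the 20 strongest calls 11 were under 30% GC, yet the bantam host, Uhg4 and the mir-279 host, at 54.5%, 51.5% and 41.6%, were among the 5 above 40%. The share of optimal calls held by each replicate was also set out by composition, on few calls and without a test. Of the 55 optimal calls under 30% GC, replicates 1 to 4 held 74.5%, 94.5%, 76.4% and 90.9%. Of the 29 above 40% GC they held 82.8%, 75.9%, 72.4% and 69.0%. Read depth and the composition of each library are not in the lists, and their part in these values was not tested.

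The DRE and Ohler motif 1, both rare at optimal calls in general, were not found at the optimal ncRNA summits. The TATA and GAGA words occurred there in shares that overlapped those at protein-coding promoter calls. The words were searched on both strands in the same windows. They were the DRE (TATCGATA), Ohler motif 1 (GGTCACACT), Ohler motif 7 (CATCNCTA), the GAGA element (GAGAG), the TATA box (TATAAA), the initiator (TCAGTT), the E-box (CACGTG) and a CA repeat (CACACACA). The DRE and motif 1, words typical of broadly active housekeeping promoters, were in 0 of the 128 windows, which allows a share of up to 2.34%. They were in 2.85% and 1.10% of the windows at the 2173 optimal protein-coding promoter calls, and in 4.48% of all protein-coding TSS windows (DRE). At all optimal calls they stood at 1.32% and 0.595%, and at all long ncRNA TSSs at 0.689% and 0.306%. These last 4 shares are all under 2.34%. Motif 7 was in 1 of the 128 (0.781%), the window of the call shared by lncRNA:CR45439 and lncRNA:CR45440, against 2.35% at protein-coding promoter calls. The E-box was in 2 windows, at mir-4962 and lncRNA:CR43928. The GAGA word was in 11.7% of the 128 windows (interval 6.71 to 18.6), against 9.11% at optimal protein-coding promoter calls and 11.9% of the windows at all long ncRNA TSSs. The TATA word was in 18.8% (interval 12.4 to 26.6), against 20.1% at optimal protein-coding promoter calls and 14.2% at all long ncRNA TSSs. The initiator word was in 7.81% and the CA repeat in 1.56%. For the GAGA, TATA, initiator and CA words, the intervals include the shares at optimal protein-coding promoter calls. The DRE and motif 1 shares at protein-coding promoter calls lie near or under the limit that 0 of 128 allows, so a lower share at ncRNA promoters was barely detectable for the DRE and not detectable for motif 1.

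The limits of the rule passed through a continuous range of calls. Just inside the ncRNA limit were the optimal calls at lncRNA:CR44467 (499 bp, rank 4123) and lncRNA:CR43928 (496 bp, rank 4360), and just outside it those at lncRNA:CR45542 (514 bp, rank 3127) and lncRNA:CR46094 (519 bp, rank 2965). Just beyond the protein-coding limit, and so kept, were the calls at lncRNA:CR43493 (511 bp from l(1)G0196, rank 2701) and asRNA:CR44429 (549 bp from gce, rank 169). Just within it, and so left out, were those at asRNA:CR46044 (494 bp from Septin2, rank 825) and lncRNA:CR44365 (491 bp from CG42808, rank 1528).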

How the data were processed

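The deposited files were peak lists on dm6, per the deposited text notes on the files: 1 list of 30000 calls for each of 4 replicates, each against the same control, 1 for the 4 alignments pooled, and the optimal list. The aligner, peak caller and versions are not given in the sources used here. The deposited signal column is the authors' caller score for each call, and the deposited −log10 q column gives its q-value. Both were used within a list only. The p-value column held no values.

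From these lists the summit (start plus offset) was set against starts in Ensembl release 115. The optimal calls were the strongest pooled calls, as many as the optimal list holds, found by position. Calls off the 6 arms were left out. Overlapping pooled calls can be credited with the same replicate call. Shares carry 95% exact Clopper-Pearson intervals, 0 counts a limit of 3 counts, and differences over replicates a two-sided exact sign-flip permutation test. Nothing but the replicate numbers tells the replicates apart in the lists. Named are the genes at the 20 strongest calls that were optimal and held by all 4 replicates, up to 4 genes per gene list, genes in counts of 5 or fewer and genes at the limits. The mir-1 and mir-309 hosts, the weaker host calls and the neighbours were named after their values were seen. Sequences were printed for the 6 strongest, leaving out 1 chromosome arm. The members and lists were chosen with earlier results of these data known, and the base-composition bands after their values were seen. Scripts were tested on simulated calls and used Python 3.11.15, pandas 2.3.3, numpy 2.4.6, SciPy 1.17.1 and matplotlib 3.10.9. Alternatives covered the windows, TSS choice, summit offset, small RNA starts, rank limits, left-out replicates and motif windows.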

Additional observations from a re-analysis of the deposited data

Results flagged for a closer look

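Of 31 sets of 4 replicate values examined, 1 held a value far from the other 3, and chance alone gives about 1 in 20. The call at lncRNA:CR31840 had rank 34 in replicate 4, against ranks of 9 to 13 in the other replicates, a gap of 0.840 of the whole range, past the limit of Dixon's test for 4 values. All 4 ranks are among the strongest of 30000 calls.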

How the results depend on the processing

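Of 93 alternative values 73 stayed within their limits, 19 moved beyond them and 1 changed sign. With an ncRNA window of 200 bp there were 306 calls, 325 genes with a call and 58 with an optimal one, and with 1000 bp 1337 calls, 1137 genes and 252 genes. The shares in the optimal list and upstream did not move under any window, TSS or offset alternative. When a replicate's list of strongest calls was shortened by 50%, extended to 10000 or to all 30000, all 4 replicates held 7.62%, 15.5% and 34.2% of the ncRNA promoter calls, and the mean share held was 12.0%, 34.7% and 69.3%. The difference from protein-coding promoter calls was -5.16, -13.6 and -5.58 points under these 3 settings, the last with an exact permutation p of 0.375. Beside protein-coding promoter calls with no opposite TSS within 1000 bp it was -7.70 points. Set beside calls near neither TSS it was 5.39. Leaving out each replicate gave 10.8% to 12.0% held by all the others, a mean held of 19.0% to 19.4% and differences of -11.9 to -11.4 points. In motif windows of 25 bp each side, motif 7 stood at 0 and the initiator at 3.12%. With 100 bp, GAGA stood at 24.2%, TATA at 39.8% and the initiator at 16.4%. In calls held by all 4 replicates, motif 7 and the CA repeat stood at 0. Wider windows and more calls raise such counts by construction. The 4 replicates form 1 group, so their numbers pair no groups. The sign-flip tests pair the 2 shares taken from the same replicate. Depth is unknown, so no value could be weighted by it, and the label conflict could not be settled from the lists.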

Other observations

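Most long ncRNA genes with a call had a single one: 484 of 587 had 1, 92 had 2 and 11 had 3 or more. lncRNA:CR46006, the mir-276a host, had the most, with 5 calls of which 1 was optimal. Of the 114 long genes with an optimal call, 7 had 2 or more, and lncRNA:CR43928, near the translation repressor gene Thor, had 3 of 3. Its calls of ranks 1407 and 5004 overlap and are credited with the same replicate calls, so they are not separate evidence. Of the 128 optimal ncRNA promoter calls 57 (44.5%, exact 95% interval 35.7 to 53.6) had another optimal summit within 2000 bp. The share was 32.5% of the optimal protein-coding promoter calls (interval 30.6 to 34.6) and 36.8% of all optimal calls. It was 39.6% of the optimal calls with neither kind of TSS within 500 bp. The last 2 shares lie inside the ncRNA interval.

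The 9 optimal calls near small RNA entries alone included one of rank 3018 with its summit 455 bp downstream of a mature mir-ban entry, which it did not overlap. Replicates 2 and 4 ranked it 2564 and 2235, and replicates 1 and 3 had no summit in it. The others lay at mir-9378, mir-9377, mir-4962, mir-2491, mir-275, mir-34, snoRNA:Or-ACA9 and sncRNA:CR43701. The miRNA starts are processed ends, so their distances do not refer to a promoter. Whether this also applies to snoRNA:Or-ACA9 and sncRNA:CR43701 was not examined.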
